A study of Arabidopsis thaliana with 12 samples.

Results

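The segment described here is a 2 Mb stretch of the short arm of Arabidopsis thaliana chromosome 4, from 0.9 to 2.9 Mb in TAIR10 coordinates, which holds a knob of heterochromatin. Its members were the 500 bp regions that the deposited small RNA tables list with a start inside those limits. There were 249 members among 6125 regions in all. Of these, 241 were in the table of repeat 1 and 187 in that of repeat 2. The 179 members in both tables were tested, out of 4213 regions in both tables over the whole genome. The other 62 in repeat 1 alone and 8 in repeat 2 alone were described only.

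Small RNA libraries came from 10-day-old seedlings grown on plates at 22 °C (16 h light, 8 h dark), in 6 genotypes with 2 repeats each. The wild type (WT) was compared with the triple mutant arid2-/-arid3-/-arid4-/- (arid2/3/4), the double mutant epcr1-/-epcr2-/- (epcr1/2), and the single mutants nrpe1-/- (nrpe1) and hda6-/- (hda6). The single mutant nrpd1-/- (nrpd1) was described without a test. No source used here gives the ecotype, the alleles or the number of plants pooled. Whole seedlings were used, so fewer cells with a given small RNA and less of it per cell cannot be told apart. These tables hold no transcript levels of the mutated genes. By its title, the series addresses the part of PEAT complexes in histone deacetylation and in the silencing of heterochromatin.

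Heterochromatic siRNAs in plants begin with RNA polymerase IV, whose largest subunit is NRPD1. They guide DNA methylation at sites where RNA polymerase V, with its largest subunit NRPE1, makes scaffold transcripts. ARID2, ARID3, ARID4, EPCR1 and EPCR2 are components of the PEAT complexes, and HDA6 is a histone deacetylase that silences repeats and transposons. A heterochromatic knob is a block of compact, repeat-rich chromatin away from the centromere, and that of chromosome 4 lies among genes of the short arm. The limits used for it, 1.6 to 2.3 Mb, are approximate and come from general knowledge.

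Within the knob, 86 of the 87 consecutive windows of chr4:1699001-1742500 (43.5 kb) were listed, and 82 were in both tables, which is 45.8% of the tested members. This stretch is a tandem array, taken as the longest chain of listed members with starts at most 1000 bp apart. In each, at least 90% of the repeated 24-base words occur only in the segment. Scores were not used beyond the listing, but the limits of the array depend on which windows were listed. It lies between the pseudogenes AT4G03795 and AT4G03800 and overlaps no annotated gene. Its commonest repeat spacing was 1948 bp. One 24-base word, called the anchor here, occurred 22 times in the array and 22 times in the genome. Of its 21 spacings, 20 were between 1890 and 1960 bp, and the other was 3886 bp. Neighbouring full units were 91.9% to 98.6% identical over 19 pairs, with a median of 97.2%. The array held 34.2 CG dinucleotides per kb against 24.2 in the whole segment, at 35.2% and 36.2% G + C. Because its copies are near-identical, their reads cannot be told apart and its regions are not independent, so counts are given with and without the array. The first 150 bases from the anchor (in capitals) are shown for the copies at chr4:1701518-1701667, chr4:1722930-1723079 and chr4:1740295-1740444, on the plus strand of the RefSeq TAIR10.1 sequence. The middle copy differed from the one before it by 6 edits, and the last from the middle one by 8.
array copy 2: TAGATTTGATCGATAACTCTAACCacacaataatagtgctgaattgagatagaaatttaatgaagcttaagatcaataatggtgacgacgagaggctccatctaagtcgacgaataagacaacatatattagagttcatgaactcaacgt
array copy 12: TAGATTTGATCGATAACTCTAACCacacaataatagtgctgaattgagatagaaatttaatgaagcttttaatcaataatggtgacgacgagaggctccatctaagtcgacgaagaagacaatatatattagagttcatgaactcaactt
array copy 21: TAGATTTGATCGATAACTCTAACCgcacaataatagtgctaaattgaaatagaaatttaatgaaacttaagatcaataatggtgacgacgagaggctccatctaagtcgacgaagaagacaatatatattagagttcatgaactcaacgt

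Outside the array, 5 regions lead the results below, and the central 200 bases of each are shown from the same strand and assembly. Capitals mark words of 12 or more bases that recur within the 200 bases. The first, chr4:1777151-1777350, had the highest wild-type score and the largest decrease in nrpe1. Next is chr4:2073651-2073850, which fell most in arid2/3/4 and whose recurring words are runs of GGT. In order, chr4:2839151-2839350 rose most in arid2/3/4, chr4:2865651-2865850 rose most in epcr1/2, and chr4:1063651-1063850 fell most in hda6.
highest wild type: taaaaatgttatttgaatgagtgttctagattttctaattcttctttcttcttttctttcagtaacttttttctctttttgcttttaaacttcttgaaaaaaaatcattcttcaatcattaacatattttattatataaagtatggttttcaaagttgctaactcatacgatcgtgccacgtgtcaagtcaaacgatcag
largest decrease in arid2/3/4: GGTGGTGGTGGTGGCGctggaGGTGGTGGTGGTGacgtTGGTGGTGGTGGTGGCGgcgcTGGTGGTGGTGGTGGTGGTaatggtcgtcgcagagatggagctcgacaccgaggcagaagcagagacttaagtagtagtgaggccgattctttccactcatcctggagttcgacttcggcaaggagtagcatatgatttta
largest rise in arid2/3/4: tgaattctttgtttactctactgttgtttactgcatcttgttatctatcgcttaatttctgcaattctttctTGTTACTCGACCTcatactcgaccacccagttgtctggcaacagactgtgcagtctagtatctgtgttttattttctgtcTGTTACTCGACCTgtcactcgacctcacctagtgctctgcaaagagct
largest rise in epcr1/2: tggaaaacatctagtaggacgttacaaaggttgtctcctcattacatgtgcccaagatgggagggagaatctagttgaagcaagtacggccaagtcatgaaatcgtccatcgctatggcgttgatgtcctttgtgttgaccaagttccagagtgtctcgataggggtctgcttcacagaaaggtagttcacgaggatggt
largest decrease in hda6: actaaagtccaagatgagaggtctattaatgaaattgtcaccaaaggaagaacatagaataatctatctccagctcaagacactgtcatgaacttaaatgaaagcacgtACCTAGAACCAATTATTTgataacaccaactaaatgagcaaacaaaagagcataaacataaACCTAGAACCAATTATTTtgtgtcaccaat
The window that fell most in hda6 holds its recurring word in 2 copies, and the stretches with the highest wild-type score and the largest rise in epcr1/2 hold none.

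Small RNAs of the array were lower in arid2/3/4 than in wild type and higher in epcr1/2, and both arid2/3/4 libraries were below both epcr1/2 libraries at all 82 of its tested regions. Over all regions tested in the genome, 43.1% had the same order. A score here is the authors' whole-number abundance for a region. Median scores in repeats 1 and 2 were 309 and 193 in wild type, 89.5 and 102.5 in arid2/3/4, and 420 and 478.5 in epcr1/2. They were 280.5 and 180 in nrpe1, 178.5 and 177 in hda6, and 3 and 0 in nrpd1. Both epcr1/2 medians stood above those of every other genotype, and both arid2/3/4 medians stood below all but those of nrpd1. The mean score of arid2/3/4 was a median of 0.398 times that of wild type, with a range over regions of 0.286 to 0.915. That of epcr1/2 was 1.86 times wild type (1.34 to 3.26) and 4.48 times arid2/3/4 (3.22 to 5.76).

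**Figure D1:**
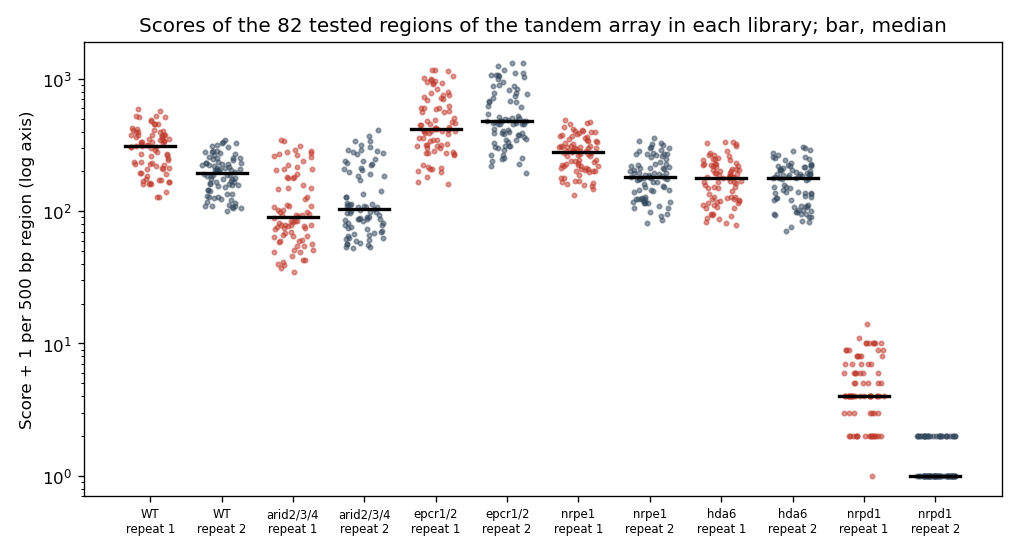
Scores plus 1, on a log axis, of the 82 tested regions of the tandem array in each of the 12 libraries, with a bar at the median. The epcr1/2 medians (420 and 478.5) lie above and the arid2/3/4 medians (89.5 and 102.5) below those of wild type (309 and 193), and nrpd1 is near 0.

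Limma's moderated linear model, with the repeat as a block and Benjamini-Hochberg adjustment over 4213 regions, gave the calls, at an adjusted p under 0.05. Fitted changes are differences in log2(score + 89). In the direct comparison of the mutants, all 82 tested array regions were lower in arid2/3/4 than in epcr1/2, with a median log2 change of -1.53 and a range from -1.80 to -0.99. Repeat medians were -1.49 and -1.55, and all 82 calls also stood after median scaling or quantile normalization of the libraries, with a median of -1.19 in each. Against wild type, 62 array regions were lower in arid2/3/4 and 0 higher (0 also at an unadjusted p under 0.05), with a median of -0.71. Against wild type, 79 were higher in epcr1/2 and 0 lower (also 0 unadjusted), with a median of 0.69. The arid2/3/4 decreases came to 82 after median scaling and 78 after quantile normalization. The rise of epcr1/2 over wild type was smaller after scaling: median scaling left 37 higher and 2 lower with a median of 0.13, and quantile normalization 41 and 2 with a median of 0.28. It came to 50 higher without repeat 2 of wild type and 51 without repeat 2 of epcr1/2. Over all regions, 52.2% were higher in epcr1/2 than in wild type, with a median of 0.48. In arid2/3/4, 28.9% of all regions were lower than in wild type (median -0.01) and 23.6% lower than in epcr1/2 (median -0.08).

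Wild-type repeats differed in the array. Their median ratio of repeat 1 to repeat 2 was 1.56, against 1.23 over all tested regions, and the same ratio was 1.51 in nrpe1 but 0.87 in arid2/3/4 and 0.88 in epcr1/2. Over all tested regions these mutants had nearly the same ratios as in the array, at 1.5, 0.89 and 0.88. The comparisons of arid2/3/4 and epcr1/2 with wild type differed by repeat. The median change of arid2/3/4 was -0.98 in repeat 1 and -0.44 in repeat 2, and that of epcr1/2 was 0.43 and 1.01. Of the array regions, 64 had both arid2/3/4 libraries below both wild-type libraries, against 35.8% of all tested regions. Both epcr1/2 libraries were above them at 80, against 54.7% of all tested regions.

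Changes against wild type varied with the position in the repeat unit. With the unit cut into 4 equal sections from the anchor, 76 regions had a position and 6 had none. In the third section (974 to 1461 bp) median scores in repeats 1 and 2 were 332 and 210 in wild type, 208 and 238 in arid2/3/4, and 733 and 882 in epcr1/2. In the fourth section (1461 to 1948 bp) they were 306 and 195.5, 64 and 88.5, and 330 and 402.5. Wild-type levels were thus close in these sections, while both mutants were higher in the third. The arid2/3/4 change against wild type was a median of -0.88, -0.60, -0.23 and -1.0 from the first section to the fourth, with 17 of 17, 17 of 20, 5 of 21 and 18 of 18 regions called lower. The repeats differed in this: medians in repeats 1 and 2 were -0.5 and 0.05 in the third section and -1.32 and -0.65 in the fourth. The epcr1/2 change was 0.61, 0.95, 1.27 and 0.52. Set directly against each other, arid2/3/4 and epcr1/2 differed by -1.53, -1.59, -1.53 and -1.44, nearly the same in each section. Median G + C was 33.2%, 34.2%, 40.0% and 34.6%, so the third section was also the richest in G + C. Whether sections differ was not tested, since the copies share reads.

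**Figure D2:**
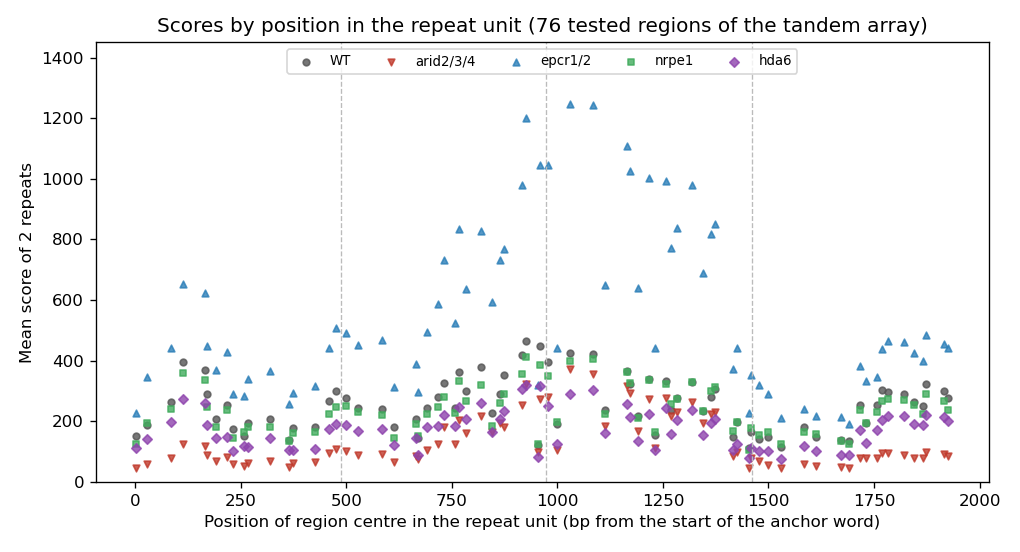
Mean score of 2 repeats against position in the repeat unit, in bp from the anchor, for 76 tested array regions and 5 genotypes, with dashed lines between sections. Scores in epcr1/2 rise toward the middle of the unit, and arid2/3/4 comes near wild type in the third section, where its median change was -0.23 against -1.0 in the fourth. In the third section that change was -0.5 in repeat 1 and 0.05 in repeat 2.

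The tables list no member with a wild-type score under 98.0, so members passed through their wild-type value, which favours scores lower than wild type in every mutant. All 4213 regions of the background came from the same tables, and arid2/3/4 against epcr1/2 uses no wild-type library in its contrast. The part of this choice in the counts was not tested. Over the whole segment, 107 of 179 tested members were lower in arid2/3/4 than in wild type and 18 higher. Over all 4213 regions, 28.9% were lower and 38.7% higher. The median log2 change was -0.51 in the segment and -0.01 over all regions. Without the array, 45 of 97 were lower and 18 higher, and median scaling gave 75 lower. In epcr1/2, 113 members were higher and 19 lower, against 52.2% and 14.8% of all regions, and the medians were 0.54 and 0.48. That share is near the background. Outside the array 34 were higher and 19 lower, a split that median scaling turned to 16 and 61 and quantile normalization to 26 and 45. Median scaling turned the split of the epcr1/2 calls to 53 higher and 63 lower, and quantile normalization to 67 and 47. The higher calls in epcr1/2 came to 75 without repeat 2 of wild type and 74 without repeat 2 of epcr1/2.

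The direct comparison of the 2 PEAT mutants gave 117 members lower and 5 higher in arid2/3/4 than in epcr1/2. Over all regions, 23.6% were lower and 6.84% higher. The median change was -1.12 in the segment and -0.08 over all regions. The segment held 4.25% of the tested regions and 11.8% of the regions lower in arid2/3/4 than in epcr1/2. The array held 82 of the 117 lower members. Among 122 windows of 500 kb with at least 8 tested regions, the lowest median was -1.46, from 1.5 to 2.0 Mb of chromosome 4, where 115 regions were tested. The 82 tested regions of the array are among these 115. The next lowest was -0.75, on chromosome 1 from 14.5 to 15.0 Mb. Outside the array 35 of 97 members were lower and 5 higher, with a median of -0.20. Median scaling turned these to 33 and 30 (median 0.06) and quantile normalization to 26 and 17 (median -0.03), and 23 were lower without repeat 1 of arid2/3/4. Median scaling gave 115 lower and 30 higher, and quantile normalization 108 and 17, for the whole segment. Higher calls came to 2 without repeat 2 of arid2/3/4 or without repeat 1 of epcr1/2.

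Beyond the array, scores lower in arid2/3/4 than in wild type and epcr1/2 were also seen in regions with few or no other copies in the genome. A region was called mostly single-copy where at least 80% of its 24-base words occurred once. The segment had 22 such tested members, all outside the array. In arid2/3/4, 19 of the 22 were lower than in wild type and 0 higher (0 unadjusted), with a median of -0.75, and 16 were lower and 1 higher than in epcr1/2, with a median of -0.89. Against wild type, epcr1/2 had 10 higher and 5 lower (median 0.21), which median scaling turned to 2 and 11 (median -0.24) and quantile normalization to 6 and 6 (median -0.06). Their mean scores in epcr1/2 were a median of 4.98 times those in arid2/3/4. In the rest of the genome, 279 tested regions were mostly single-copy, of which 209 were lower in arid2/3/4 than in wild type (median -0.47). Of those 279, 82 were lower and 30 higher in arid2/3/4 than in epcr1/2, with a median of -0.04. The 16 lower calls against epcr1/2 in the segment became 16 after median scaling and 15 after quantile normalization.

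Small clusters of neighbouring regions carried many of these single-copy members. Those at chr4:1595501-1600000, chr4:2073001-2077500 and chr4:2811501-2816000 held 4, 5 and 2 of them. At chr4:1595501-1600000, over the protein-coding gene AT4G03580 and its upstream side, 5 regions were tested. Their median scores in repeats 1 and 2 were 237 and 186 in wild type, 42 and 54 in arid2/3/4, 333 and 357 in epcr1/2, 203 and 157 in nrpe1 and 89 and 120 in hda6. Both arid2/3/4 values were the lowest and both epcr1/2 values the highest of these. All 5 were called lower in arid2/3/4 than in wild type (median -1.0) and than in epcr1/2 (median -1.50). At chr4:1597001-1597500, within the coding sequence, scores were 349 and 265 in wild type, 42 and 54 in arid2/3/4, and 452 and 500 in epcr1/2. The fitted change was -1.52 ± 0.18 (SE) for arid2/3/4 against wild type, with a limma adjusted p of 5.5e-16, and -2.04 against epcr1/2.

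A similar cluster lay at chr4:2073001-2077500, between the pseudogenes AT4G04290 and AT4G04293 and over the non-coding RNA genes AT4G04795 and AT4G04805. Its 5 tested regions had median scores of 146 and 145 in wild type, 40 and 59 in arid2/3/4, 259 and 295 in epcr1/2, 168 and 115 in nrpe1 and 86 and 79 in hda6. All 5 were called lower in arid2/3/4 than in wild type (median -0.84) and than in epcr1/2 (median -1.37). The GGT-rich region chr4:2073501-2074000, 1728 bp beyond AT4G04290, had scores of 655 and 426 in wild type, 125 and 112 in arid2/3/4, and 1029 and 1024 in epcr1/2. Its change was -1.58 ± 0.20 (SE) against wild type (limma adjusted p of 3.6e-14) and -2.43 against epcr1/2 (limma adjusted p of 2.1e-32).

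At chr4:2811501-2816000, over the pseudogene AT4G05526 and toward IBR1, which encodes a peroxisomal enzyme of indole-3-butyric acid metabolism, 4 regions were tested. Median scores were 148 and 121 in wild type, 34 and 37.5 in arid2/3/4, 145.5 and 175 in epcr1/2, and 77 and 67 in hda6. All 4 were lower in arid2/3/4 than in wild type and than in epcr1/2, with medians of -0.84 and -0.98. In epcr1/2, 1 of the 4 was called higher than in wild type and 1 lower. Farther on, chr4:2865501-2866000 overlaps the end of the pseudogene AT4G05584 and was the member with the largest rise in epcr1/2. Scores averaged 275.5 ± 96.9 (SD, n = 2) in wild type, 901.0 ± 17.0 in epcr1/2 and 153.0 ± 1.4 in arid2/3/4. The change in epcr1/2 was 1.47 ± 0.19 (SE), with a limma adjusted p of 1.7e-12. In these clusters the rise of epcr1/2 over wild type depends on the scaling: after median scaling its median at AT4G03580 went from 0.52 to -0.10 and that of the cluster beside AT4G04290 from 0.53 to -0.02.

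**Figure D3:**
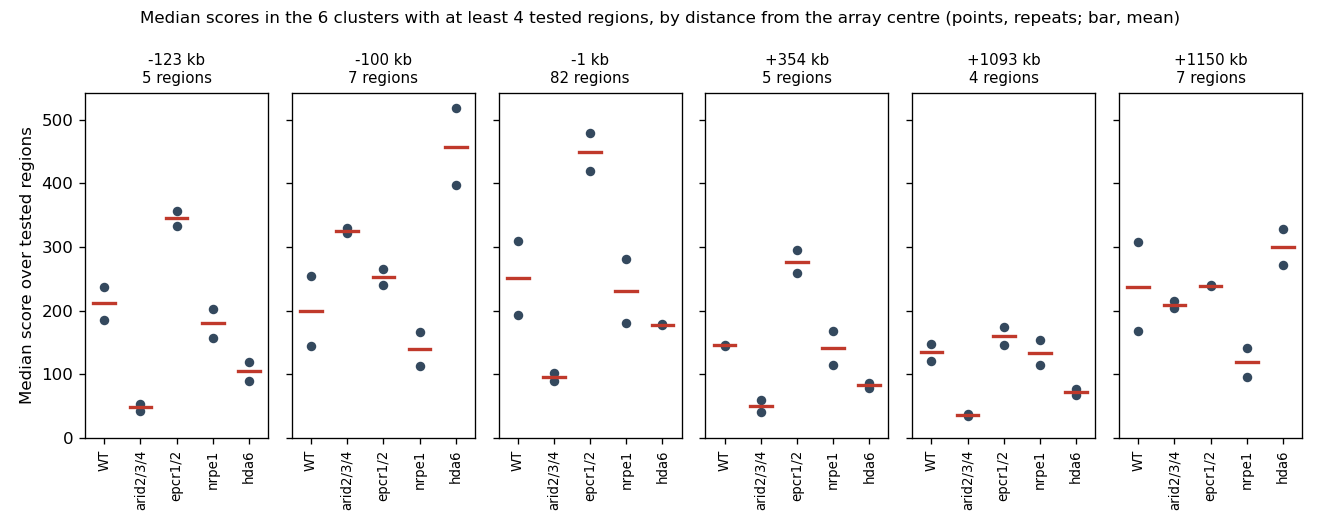
Median scores over the tested regions of the 6 clusters with at least 4 tested regions, ordered by distance from the centre of the tandem array, with 1 point for each repeat and a bar at the mean. Nrpd1 is not plotted. By the mean of repeats, arid2/3/4 is the lowest of the genotypes plotted and epcr1/2 the highest in 4 clusters, the array among them, and the cluster of AT4G03650 (second panel) has its highest medians in hda6 (518 and 397).

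The 5 rises in arid2/3/4 named here, the largest at least 1000 bp apart, overlapped or lay beside pseudogenes. The largest decrease in arid2/3/4, at chr4:2073501-2074000, also has a pseudogene as its nearest annotated feature. Of 24 tested members that overlap a pseudogene, 9 were higher in arid2/3/4, a share near the 38.7% of all regions. The share of members beside a pseudogene was not tested. Many pseudogenes annotated in Arabidopsis heterochromatin are remnants of transposons. The largest rise was at chr4:2839001-2839500, 112 bp beyond the 3′ end of AT4G05570, where scores averaged 252.0 ± 60.8 (SD, n = 2) in wild type, 845.5 ± 77.1 in arid2/3/4, 719.0 ± 75.0 in epcr1/2 and 488.0 ± 32.5 in hda6. The change in arid2/3/4 was 1.46 ± 0.21 (SE), with a limma adjusted p of 1.8e-11. The next were 1.42 at chr4:2831001-2831500, beside AT4G05556, and 1.37 at chr4:1812501-1813000, beside AT4G03870. They were followed by 1.07 at chr4:1694001-1694500, which overlaps only the edge of AT4G03790, and 1.05 at chr4:2836001-2836500, which overlaps AT4G05556. Arid2/3/4 and epcr1/2 were both above wild type at all 5. The typical word of these regions occurs 3 to 38 times in the genome, so their reads may come from other copies. All 18 higher calls stood outside the array, and 18 were counted after median scaling and 20 after quantile normalization.

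More members in pseudogenes were higher than lower in hda6. Of 24 tested members that overlap a pseudogene, 15 were higher and 4 lower in hda6 than in wild type, with a median of 0.57. The same class had 9 higher and 6 lower in arid2/3/4 (median -0.07) and 16 higher and 0 lower in epcr1/2 (median 0.49, 0 lower also at an unadjusted p). Over all regions, 25.2% were higher and 46.4% lower in hda6 (median -0.33). The shares were 38.7% and 28.9% in arid2/3/4 (median -0.01), and 52.2% and 14.8% in epcr1/2 (median 0.48). The arid2/3/4 share of rises and the epcr1/2 median of the class are near these. The 15 hda6 rises in pseudogenes came to 9 without repeat 2 of wild type, 16 after median scaling and 17 after quantile normalization. Median scaling gave 9 higher and 14 lower in arid2/3/4 (median -0.35) and 6 and 7 in epcr1/2 (median -0.03). Quantile normalization gave 9 and 11 in arid2/3/4 (median -0.20) and 12 and 5 in epcr1/2. The epcr1/2 rises came to 10 without repeat 2 of wild type and 9 without repeat 2 of epcr1/2. Near the distal edge of the knob, at chr4:1618001-1624500 over AT4G03650, all 7 tested regions were higher in hda6 (median 0.77). In the unscaled fit 4 of them were also higher in arid2/3/4 (median 0.71) and 5 in epcr1/2 (median 0.52), and 3 were lower in nrpe1. Of the 7 hda6 rises, 4 were called without repeat 2 of wild type or without repeat 1 of hda6. Median scores there were 254 and 144 in wild type, 518 and 397 in hda6, 329 and 322 in arid2/3/4, 265 and 240 in epcr1/2 and 166 and 113 in nrpe1. Both hda6 values were the highest. The largest hda6 rise in the segment was within it, at chr4:1622001-1622500, from 199.0 ± 77.8 (SD, n = 2) to 526.0 ± 104.7, a change of 1.11 ± 0.19 (SE) with a limma adjusted p of 1.6e-07. The typical word of that region occurs 18 times in the genome, so its reads may come from other copies. All 27 hda6 rises in the segment were at members outside the array that are not mostly single-copy. Of the 22 mostly single-copy members, 0 were higher and 18 lower in hda6.

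Over the segment, 27 members were higher and 74 lower in hda6 than in wild type. Over all regions, 25.2% were higher and 46.4% lower, with medians of -0.36 in the segment and -0.33 over all regions. The segment's shares are near or below that background. Of the array regions, 28 were lower and 0 higher (47 and 0 at an unadjusted p under 0.05), with a median of -0.36, and 46 of the 97 other members were lower. The array decreases turned on single libraries: 0 were called without repeat 1 of wild type (median -0.15) or without either hda6 library, 9 without either nrpd1 library, 68 without repeat 2 of wild type and 67 without either nrpe1 library. Scaling gave 81 (median scaling) and 63 (quantile normalization) lower. The count of lower members in the whole segment also turned on single libraries. It was 38 without repeat 1 of wild type, 33 and 34 without repeat 1 and repeat 2 of hda6, 119 without repeat 2 of wild type, and 120 without either nrpe1 library. That of higher members was 14 without repeat 2 of wild type and 16 without repeat 2 of hda6.

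The member that fell most in hda6 had scores near 0 there. At chr4:1063501-1064000, 114 bp beyond the 3′ end of AT4G02420, scores averaged 121.5 ± 27.6 (SD, n = 2) in wild type, 97.5 ± 3.5 in arid2/3/4 and 43.0 ± 5.7 in epcr1/2. They were 1.0 ± 1.4 in nrpe1 and 0.5 ± 0.7 in hda6. Both hda6 and both nrpe1 libraries lay below every arid2/3/4 and epcr1/2 library. The fitted change in hda6 was -1.23 ± 0.10 (SE), a figure held down by the pseudocount, with a limma adjusted p of 2.1e-34. Elsewhere the hda6 decreases left more signal. At the 5′ end of CRK40, a cysteine-rich receptor-like kinase gene, in a non-coding exon stretch (chr4:2288501-2289000), scores averaged 128.0 ± 26.9 in wild type, 22.5 ± 2.1 in hda6, 17.5 ± 3.5 in nrpe1, 44.0 ± 18.4 in arid2/3/4 and 47.0 ± 5.7 in epcr1/2. Each library of these 4 mutants was below both wild-type libraries there.

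Against hda6, arid2/3/4 was lower at 65 members and higher at 14. Over all regions, 8.71% were lower and 34.5% higher, with medians of -0.20 in the segment and 0.25 over all regions. Of the lower calls, 41 were in the array (median -0.37) and 24 outside it. The array calls came to 6 without repeat 1 of arid2/3/4 (median -0.22), and to 24 and 15 without repeats 1 and 2 of hda6, while scaling gave 66 (median scaling) and 61 (quantile normalization). Those outside came to 10 without repeat 1 of arid2/3/4, to 9 and 10 without repeats 1 and 2 of hda6, and to 55 and 50 after the 2 scalings. Without repeat 1 of arid2/3/4 the lower calls came to 16, and without repeats 1 and 2 of hda6 to 33 and 25. The higher calls came to 2 without repeat 2 of arid2/3/4, and to 6 and 5 without repeats 1 and 2 of hda6. Median scaling gave 121 lower and 6 higher, and quantile normalization 111 and 2.

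**Figure D4:**
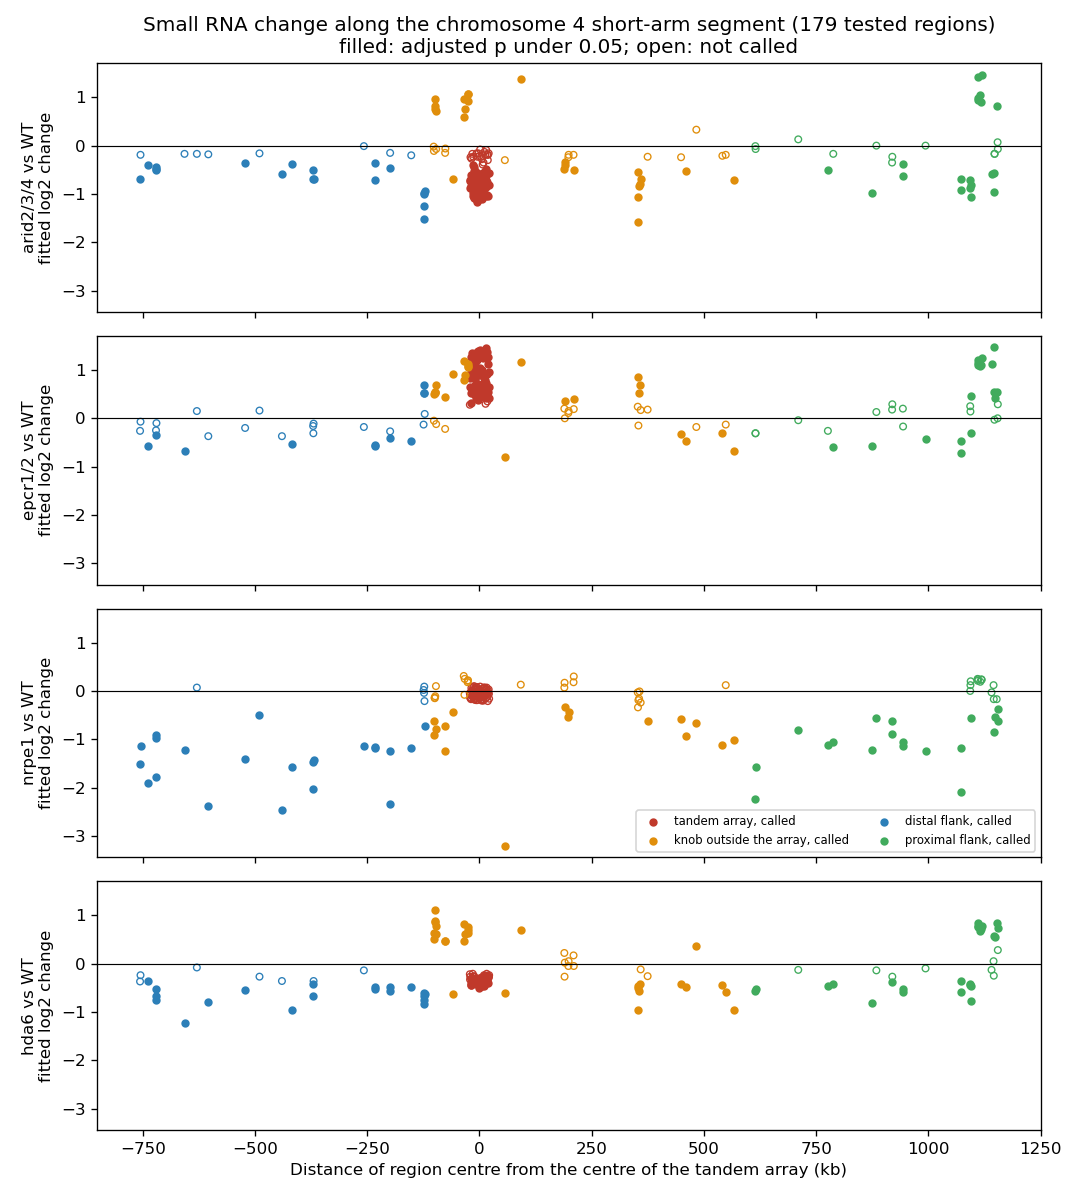
Fitted log2 change against wild type of the 179 tested members in 4 mutants, by distance in kb from the centre of the tandem array, with filled points for adjusted p under 0.05 and colours for the parts of the segment. The array sits low in arid2/3/4 (median -0.71), high in epcr1/2 (0.69) and near 0 in nrpe1 (-0.07), and the distal flank is lowest in nrpe1 (median -1.19).

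The members called lower in nrpe1 in the unscaled fit of all libraries lay outside the array. In nrpe1, 57 members were lower than in wild type and 0 higher in the unscaled fit, by limma both at an adjusted and at an unadjusted p under 0.05. Over all regions, 44.3% were lower and 1.02% higher, with medians of -0.12 in the segment and -0.09 over all regions. They made up 57 of the 97 members outside the array, where median scaling gave 27 higher and 55 lower and quantile normalization 41 and 41. In the array 0 of 82 passed in either direction, also unadjusted, but 47 were called higher after median scaling and 31 after quantile normalization. Without repeat 1 of nrpe1, 5 were called lower there, and without repeat 2 of nrpe1, 2 were called higher. Unscaled, the mean score of nrpe1 was 0.804 to 1.15 times that of wild type. Its array median of -0.07 turned to 0.23 after median scaling, 0.17 after quantile normalization, 0.15 without repeat 1 of wild type and 0.12 without repeat 2 of nrpe1. The whole-segment split became 74 higher and 55 lower after median scaling and 72 and 41 after quantile normalization, and higher calls came to 1 and 14 without repeats 1 and 2 of nrpe1. These scalings moved the median of all regions for nrpe1 from -0.09 to 0.17 and 0.34.

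The flanks held most of the nrpe1 decreases. In the distal flank (0.9 to 1.6 Mb) 22 of 27 tested members were lower, with a median of -1.19. On the telomere side of the segment, all 13 tested regions were lower (median -1.43), and over all regions 44.3% were. In the proximal flank (2.3 to 2.9 Mb) 19 of 32 were lower, with a median of -0.55, and in the knob 16 of 120. With the array left out, the knob had 16 of 38 lower, with a median of -0.18, a share near that of all regions. Median scaling gave 12 higher and 15 lower among these 38, and quantile normalization 23 and 8. For the proximal flank, median scaling gave 11 higher and 18 lower and quantile normalization 14 and 15. By annotation, 16 of 19 members within 1000 bp upstream of a protein-coding gene were lower (median -1.05), as were 9 of 12 in gene bodies (median -0.88). In the distal flank 20 members were also lower in hda6 and 19 in arid2/3/4, with medians of -0.52 and -0.47. On the telomere side of the segment, 10 and 9 of the 13 regions were, with medians of -0.45 and -0.38. Over all regions, 46.4% and 28.9% were. The arid2/3/4 count in the distal flank came to 11 without repeat 1 of wild type, 27 after median scaling and 21 after quantile normalization. There epcr1/2 had 3 higher and 8 lower, with a median of -0.25. Scaling moved this to 0 higher and 24 lower (median -0.74, median scaling) and to 1 and 21 (median -0.52, quantile normalization). Without repeat 2 of wild type or of epcr1/2 it was 1 higher and 12 lower.

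The member with the highest wild-type score fell most in nrpe1. At chr4:1777001-1777500, 2420 bp upstream of the transcribed pseudogene AT4G03823, scores were 3042 and 2028 in wild type and 242 and 144 in nrpe1, and averaged 2012.5 ± 318.9 (SD, n = 2) in arid2/3/4, 1399.5 ± 251.0 in epcr1/2, 1604.5 ± 139.3 in hda6 and 6.5 ± 2.1 in nrpd1. No other genotype but nrpd1 came as low as nrpe1. The nrpe1 change was -3.21 ± 0.26 (SE), with a limma adjusted p of 1.7e-34, and the epcr1/2 change was -0.80 ± 0.26, with a limma adjusted p of 0.003. This region is in the knob, on the centromere side of the array.

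The next 4 named decreases in nrpe1 by fitted change left mean scores of 10.5 to 44.5. Upstream of UBQ14, a polyubiquitin gene, at chr4:1280501-1281000 (335 bp away), scores averaged 506.5 ± 239.7 (SD, n = 2) in wild type and 14.5 ± 3.5 in nrpe1, a change of -2.46. At the 5′ end of AT4G02540 (chr4:1116501-1117000) the mean was 432.5 ± 34.6 in wild type, 10.5 ± 2.1 in nrpe1 and 11.5 ± 4.9 in nrpd1. At chr4:1521501-1522000 and chr4:2335001-2335500 the changes were -2.34 and -2.24. At these 4 regions arid2/3/4 kept a mean score of 294.0 or more and epcr1/2 of 313.5 or more. Upstream of DES-1-LIKE, a sphingolipid desaturase gene, at chr4:2508501-2509000, nrpe1 averaged 6.5 ± 2.1 against 109.5 ± 10.6 in wild type, and epcr1/2 (42.0 ± 4.2) was below arid2/3/4 (87.5 ± 6.4). That was 1 of the 5 members higher in arid2/3/4 than in epcr1/2, by 0.43 with a limma adjusted p of 0.00041.

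Most members lower in arid2/3/4 than in epcr1/2 were not called in nrpe1 in the unscaled fit, in contrasts that share no library. The array, whose regions share reads, held 82 of them. Of the 57 members lower in nrpe1, 15 (26.3%) were lower in arid2/3/4 than in epcr1/2, with a median gap of -0.14. Of the 122 members not called in nrpe1, 102 (83.6%) were, with a median of -1.46. With the array left out, 20 of 40 uncalled members were lower, with a median of -0.45, while the 15 of 57 stayed the same. Outside the segment the shares were 17.6% of 1811 regions lower in nrpe1 and 24.7% of 2180 uncalled ones. The difference of these shares was not tested.

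**Figure D5:**
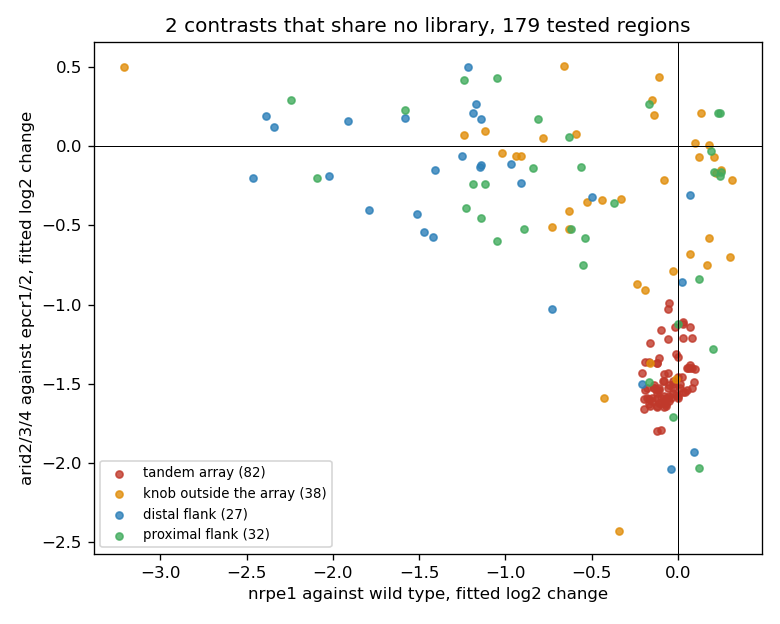
Fitted log2 change of arid2/3/4 against epcr1/2 plotted over that of nrpe1 against wild type for 179 tested members, coloured by part of the segment. The array forms a tight group near 0 on the horizontal axis at a median of -1.53 on the vertical axis, and members that fall in nrpe1 lie mostly near 0 on the vertical axis (median -0.14).

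In nrpd1 every tested member was close to 0. Its highest score was 16 in repeat 1 and 8 in repeat 2, with medians of 3 and 0, and 22 and 117 of 179 members were listed at 0. The highest ratio to wild type was 0.154 and 0.038. All members have a wild-type score of 98.0 or more, and all have low nrpd1 scores, so the choice of regions seems to have used these 2 genotypes, and no test is given. The highest ratio was at chr4:2073001-2073500, with 16 against 104 in repeat 1 and 2 against 122 in repeat 2.

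Toward the centromere, the changes of the 2 PEAT mutants against wild type were close to each other. In the next 1 Mb, 186 regions were in both tables. Of these, 177 were higher in arid2/3/4 than in wild type (median 1.13) and 176 in epcr1/2 (median 1.06). There, 8 were lower in arid2/3/4 than in epcr1/2, with a median of 0.03.

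Members in 1 table alone were described without a test. In the 62 found in the table of repeat 1 alone, wild-type scores ran from 98.0 to 183.0, 31 overlapped pseudogenes and 4 lay in the array. Their median ratio to wild type was 1.201 in arid2/3/4, 1.236 in epcr1/2, 0.943 in nrpe1 and 1.288 in hda6. The 8 found in repeat 2 alone had median ratios of 0.42, 0.977, 0.529 and 0.388, in the same order.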

How the data were processed

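Small RNA libraries of 6 genotypes with 2 repeats each were grouped by their titles; the genotype field of hda6 repeat 1 is misspelled. Since no label says that repeats were grown apart, p-values reflect a spread between samples that may be technical. For each repeat, 1 deposited table gives a whole-number score for each library and 500 bp region. Bowtie 0.12.2 and the TAIR10 build were used by the authors, per the submitters' processing notes. The sources used here do not say how the deposited scores were scaled, how multi-mapping reads were treated, or how read sizes and regions were chosen. Scores recur at regular intervals in some libraries and were treated as rounded normalized abundances, so depth is unknown.

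Scores plus a pseudocount of 89 (25th percentile of those above 0) were log2-transformed and fitted with limma 3.58.1 in R 4.3.3, using all 12 libraries, genotype, repeat as a block and a trended prior. The block keeps each comparison within a table. The fit left 5 residual degrees of freedom and the prior had infinite ones, so small p-values rest on the trend. The pseudocount understates changes of low regions. Coordinates, counted from 0 in the tables, are given from 1; genes and sequence are from RefSeq TAIR10.1. Regions were named by size of called change (up to 5 per direction, at least 1000 bp apart), wild-type score, nrpd1 ratio and copy number. Clusters chain regions at most 2000 bp apart. The members and lists were chosen with earlier results of these data known. The fit was tested on simulated data. Alternatives were scaling, pseudocount, filter, samples, prior, block, a 2-fold minimum and leaving out each library.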

Additional observations from a re-analysis of the deposited data

How the results depend on the processing

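The 12 counts of members higher or lower stayed within 1.5 times of their value when the prior had no trend with score. Without the replicate block, arid2/3/4 against epcr1/2 gave 4 higher and 116 lower, arid2/3/4 against hda6 14 and 64, and no count moved by over 1.5 times. Correlations of repeat differences ran from -0.16 (nrpd1 with hda6) to 0.64 (arid2/3/4 with hda6) over 15 pairs of genotypes. Scores in nrpd1 were near 0, and the lowest value without nrpd1 was -0.07 (arid2/3/4 with nrpe1). A low correlation does not show that samples were unpaired, so whether the repeat numbers pair samples is not known. A pseudocount 10 times smaller gave 49 lower in hda6. The filter on low scores left 31 lower in nrpe1, 45 lower in hda6, 5 lower in epcr1/2, 1 higher in arid2/3/4 than in epcr1/2 and 8 higher than in hda6. It turned the hda6 median of the proximal flank to 0.42. With only the compared groups fitted, 75 were higher in epcr1/2, 16 higher in arid2/3/4 than in epcr1/2 and 24 higher than in hda6. A 2-fold minimum left 6 higher and 19 lower in arid2/3/4, 37 and 0 in epcr1/2, 32 lower in nrpe1, 1 and 1 in hda6, 0 higher in arid2/3/4 than in epcr1/2, and 1 and 0 than in hda6; these fall by construction. Median scaling gave 53 higher and 63 lower in epcr1/2, 74 higher in nrpe1, 136 lower in hda6, 30 higher in arid2/3/4 than in epcr1/2, and 6 and 121 than in hda6. Quantile normalization gave 67 higher and 47 lower in epcr1/2, 72 higher in nrpe1, 17 higher in arid2/3/4 than in epcr1/2, and 2 higher and 111 lower than in hda6. Scaling turned the medians of arid2/3/4 against epcr1/2 to 0.06 and 0.01 in the distal flank and in the knob outside the array, of nrpe1 there to 0.05 and 0.46, of nrpe1 in the array to 0.23 and 0.17, and of epcr1/2 outside the array in the knob to -0.19 (median scaling). Quantile normalization turned arid2/3/4 against hda6 at chr4:2839001-2839500 to -0.03. Leaving out the array, an alternative chosen after seeing the data, gave 45 lower in arid2/3/4, 34 higher in epcr1/2, 46 lower in hda6, and 35 and 24 lower in arid2/3/4 than in epcr1/2 and hda6. Leaving out 1 library gave 80 to 115 lower in arid2/3/4, 74 to 118 higher in epcr1/2, 0 to 14 higher in nrpe1, 14 to 28 higher and 33 to 120 lower in hda6, 2 to 6 higher in arid2/3/4 than in epcr1/2, and 2 to 17 higher and 16 to 80 lower than in hda6, with the nrpe1 array median from -0.28 to 0.15. The cause was not tested. Depth is unknown, so no limit from depth can be given.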
